A study of Mus musculus with 6 samples.

Results

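Pyrophosphate holds back the growth of mineral crystals in cartilage, and the 3 genes examined here set its level outside the cell. Ank encodes a membrane protein needed for the release of pyrophosphate from cells, and its loss in mice stiffens and mineralizes the joints. Enpp1 encodes an ectoenzyme that splits nucleotide triphosphates such as ATP into a nucleotide monophosphate and pyrophosphate. Alpl encodes tissue-nonspecific alkaline phosphatase, which breaks pyrophosphate down to phosphate and is a marker of chondrocytes that enlarge and mineralize. Jun pairs with Fos and related proteins to form AP-1, a transcription factor, and its binding sites were mapped in rib chondrocytes by ChIP-seq, which sequences the DNA that an antibody pulls down with a protein. The members were chosen by position, as the deposited Jun peaks whose midpoint lies in 1 of 3 windows of the mouse build mm9. These windows were chr15:27360001-27560000 for Ank, chr10:24345001-24460000 for Enpp1 and chr4:137260001-137390000 for Alpl. RefSeq lists these genes under the IDs 11732 (Ank, also known as Ankh), 18605 (Enpp1) and 11647 (Alpl). The windows held 150 of the 99162 peaks in the list, 93 at Ank, 43 at Enpp1 and 14 at Alpl.

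The Jun library came from chondrocytes released by enzyme from the rib cartilage of untreated wild-type ICR mice at postnatal day 1, and an input DNA library was made from the same kind of cells. Chromatin was sheared to fragments of 100 to 600 bp, per the labels, so peaks under 100 bp are shorter than the fragments. The labels describe 1 Jun library, so no peak count below has a replicate, no comparison below was tested, and the intervals cover counting error only. A further 4 RNA-seq libraries of Swiss Webster mice carrying the Col10a1mCherry reporter were not analysed here, so no expression value stands beside the peaks and the cell type was not checked against its markers. The list gives each peak's chromosome, start and end, with no score and no depth. The genes and windows were chosen with earlier results of this peak list known, so the counts are a description. Widths and places in the list were not used in the choice of the windows, but peaks of 1 library are not replicates of each other.

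Of the 3 genes, 3 matched the RefSeq promoter table of GRCm38.p6, which gives 250 bases before and 50 bases after each start, with 2 starts for Alpl. They are shown because they are the regulatory sequence at hand for these genes. The build differs from mm9, so whether a Jun peak covers any of them was not determined. Capitals mark a match to ACAAT, a core of SOX factor sites, and the 3 sequences without capitals held no match to any motif searched. They lie at chr15:27466427-27466726 on the plus strand (Ank), and on the minus strand at chr10:24712110-24712409 (Enpp1), chr4:137796335-137796634 (Alpl, start 1) and chr4:137766426-137766725 (Alpl, start 2), all on GRCm38.p6 and written 5′ to 3′.
Ank: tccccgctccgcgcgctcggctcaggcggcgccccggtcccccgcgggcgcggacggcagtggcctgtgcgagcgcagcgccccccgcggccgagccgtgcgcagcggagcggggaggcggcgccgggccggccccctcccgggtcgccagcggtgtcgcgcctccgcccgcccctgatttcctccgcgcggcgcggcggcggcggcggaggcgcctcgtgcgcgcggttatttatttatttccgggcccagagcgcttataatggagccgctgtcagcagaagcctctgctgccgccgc
Enpp1: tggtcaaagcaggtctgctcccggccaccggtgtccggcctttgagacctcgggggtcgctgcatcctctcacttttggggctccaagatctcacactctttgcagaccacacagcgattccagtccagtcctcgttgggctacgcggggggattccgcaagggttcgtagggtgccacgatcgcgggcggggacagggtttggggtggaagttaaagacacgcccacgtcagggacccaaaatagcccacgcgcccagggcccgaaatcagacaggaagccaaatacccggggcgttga
Alpl start 1: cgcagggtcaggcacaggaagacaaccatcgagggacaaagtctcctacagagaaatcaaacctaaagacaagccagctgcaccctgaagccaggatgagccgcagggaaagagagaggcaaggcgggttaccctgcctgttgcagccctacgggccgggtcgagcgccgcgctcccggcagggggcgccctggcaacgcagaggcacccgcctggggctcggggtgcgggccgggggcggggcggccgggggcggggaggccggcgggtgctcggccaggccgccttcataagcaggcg
Alpl start 2: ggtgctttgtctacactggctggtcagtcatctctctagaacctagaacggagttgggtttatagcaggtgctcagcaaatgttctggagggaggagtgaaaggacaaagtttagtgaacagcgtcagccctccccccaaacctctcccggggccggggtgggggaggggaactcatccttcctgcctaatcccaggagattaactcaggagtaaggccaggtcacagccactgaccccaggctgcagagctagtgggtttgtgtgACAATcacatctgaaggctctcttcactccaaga

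None of these 4 promoters held TGANTCA, the AP-1 consensus, or TGACGTCA, the related CRE consensus, on either strand. Among all 32851 promoters of the table, 7.81% held the first and 1.79% the second. ACAAT was found in 31.0% of all promoters and, of these 4, in Alpl start 2, from the 17th base of the transcribed part. No matches overlapped. The promoters differed in base composition, with 78.0% G or C and 53 CpG pairs at Ank, 61.7% and 22 at Enpp1, 70.0% and 26 at Alpl start 1, and 54.3% and 4 at Alpl start 2. Over all promoters the median was 52.7%, with 7 CpG pairs. On GRCm38.p6 the nearest coding genes on the lower and the higher side are Fbxl7 and Otulin for Ank, Ccn2 and Enpp3 for Enpp1, and Rap1gap and Ece1 for Alpl. The lncRNA gene Gm29901 and the miRNA gene Mir7117 lie within Ank there. Which peak lies in an exon, an intron or a neighbouring gene was not determined, because no mm9 gene positions were used here.

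Jun peaks were densest in the Ank and Enpp1 windows and less dense in the Alpl window. Alpl too held more peaks than most windows of its length, but not more than the equally long stretches beside it. The Ank window had 46.5 peaks per 100 kb (95% Poisson interval 37.5 to 57.0) and the Enpp1 window 37.4 (27.1 to 50.4). The Alpl window had 10.8 (5.89 to 18.1). Grouped peaks make such intervals too narrow, and no test between the genes was made. Joining peaks under 1000 bp apart brought the genes closer, at 18.0 regions per 100 kb for Ank, 15.7 for Enpp1 and 8.46 for Alpl. Peaks covered 16366 bp or 8.18% of the Ank window, 7143 bp or 6.21% of the Enpp1 window and 1258 bp or 0.968% of the Alpl window. Set beside autosomal windows of the same length laid end to end, 3 of 12020 windows of 200 kb held as many peaks as Ank or more (0.0250%, exact 95% binomial interval 0.00515 to 0.0729). That share was 0.158% with peaks under 1000 bp apart joined and 1.32% in the first 50% of the list. For Enpp1 it was 42 of 20893 windows of 115 kb (0.201%, 0.145 to 0.272), 1 of which overlaps the Enpp1 window, and the share was 1.07% with peaks joined and 0.407% in the first 50% of the list. In that first 50% the order of the 2 genes turned, with 11.0 peaks per 100 kb at Ank and 16.5 at Enpp1, beside 5.38 at Alpl. For Alpl it was 2080 of 18483 windows of 130 kb (11.3%, 10.8 to 11.7). The Alpl count was 2.65 times the mean of these windows, against 11.4 times for Ank and 9.19 times for Enpp1. The median autosomal window held 4 peaks at 200 kb, 2 at 115 kb and 3 at 130 kb, and 24.7%, 32.3% and 30.5% of these windows held none. Of these end-to-end windows of 200 kb, only 1 each on chromosomes 1, 4 and 7 held more peaks than Ank, with 143, 143 and 101. The grid was fixed, while the Ank window was placed at its gene, and a grid window on chromosome 3 held 92.

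**Figure D1:**
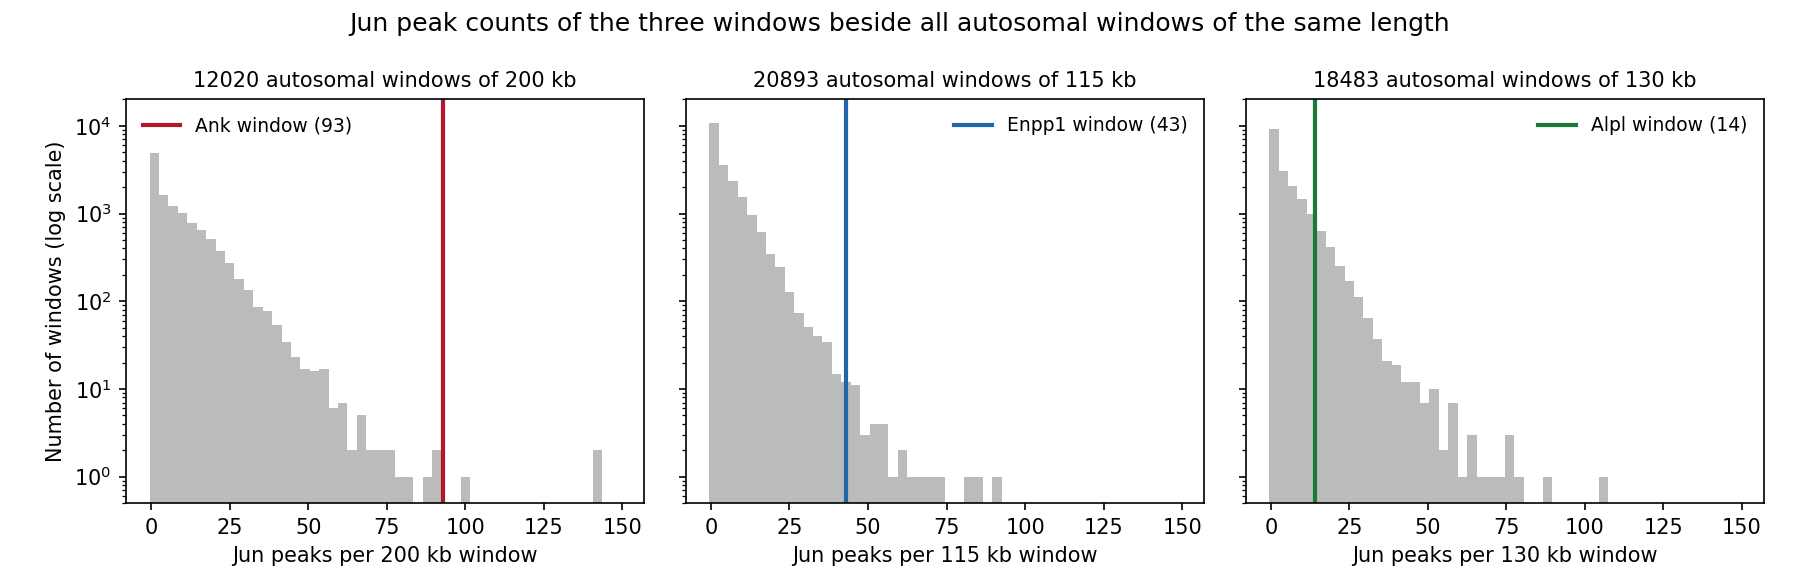
Number of autosomal windows (log scale) by Jun peaks per window, with 1 panel for each window length and a coloured line at the count of the named window. Ank with 93 peaks and Enpp1 with 43 lie in the far right tail, and Alpl with 14 lies further left, where 11.3% of windows reach its count.

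Equally long stretches beside the Ank and Enpp1 windows held fewer peaks, and those beside the Alpl window slightly more. Those on the lower and the higher side held 20 and 23 peaks at Ank, so that the window had 4.33 times their mean. At Enpp1 these stretches held 16 and 18, a ratio of 2.53, and at Alpl 16 and 17, a ratio of 0.848. The next stretch of 130 kb on the lower side of Alpl held 47 peaks. At the edges of the Ank window, the first peak inside was chr15:27375990-27376050, 16.02 kb from the edge, and the last was chr15:27559682-27559938, 190.5 bp from the edge. The nearest peaks left out there were chr15:27358768-27358797 and chr15:27560381-27560481, 1218 and 430.5 bp outside. For Enpp1 the first and last peaks inside were chr10:24350644-24350727 and chr10:24459113-24459272, and the nearest left out were chr10:24329664-24330049 and chr10:24462961-24463044. For Alpl they were chr4:137260641-137260737 and chr4:137370303-137370329 inside, and chr4:137259147-137259292 and chr4:137392025-137392134 outside.

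**Figure D2:**
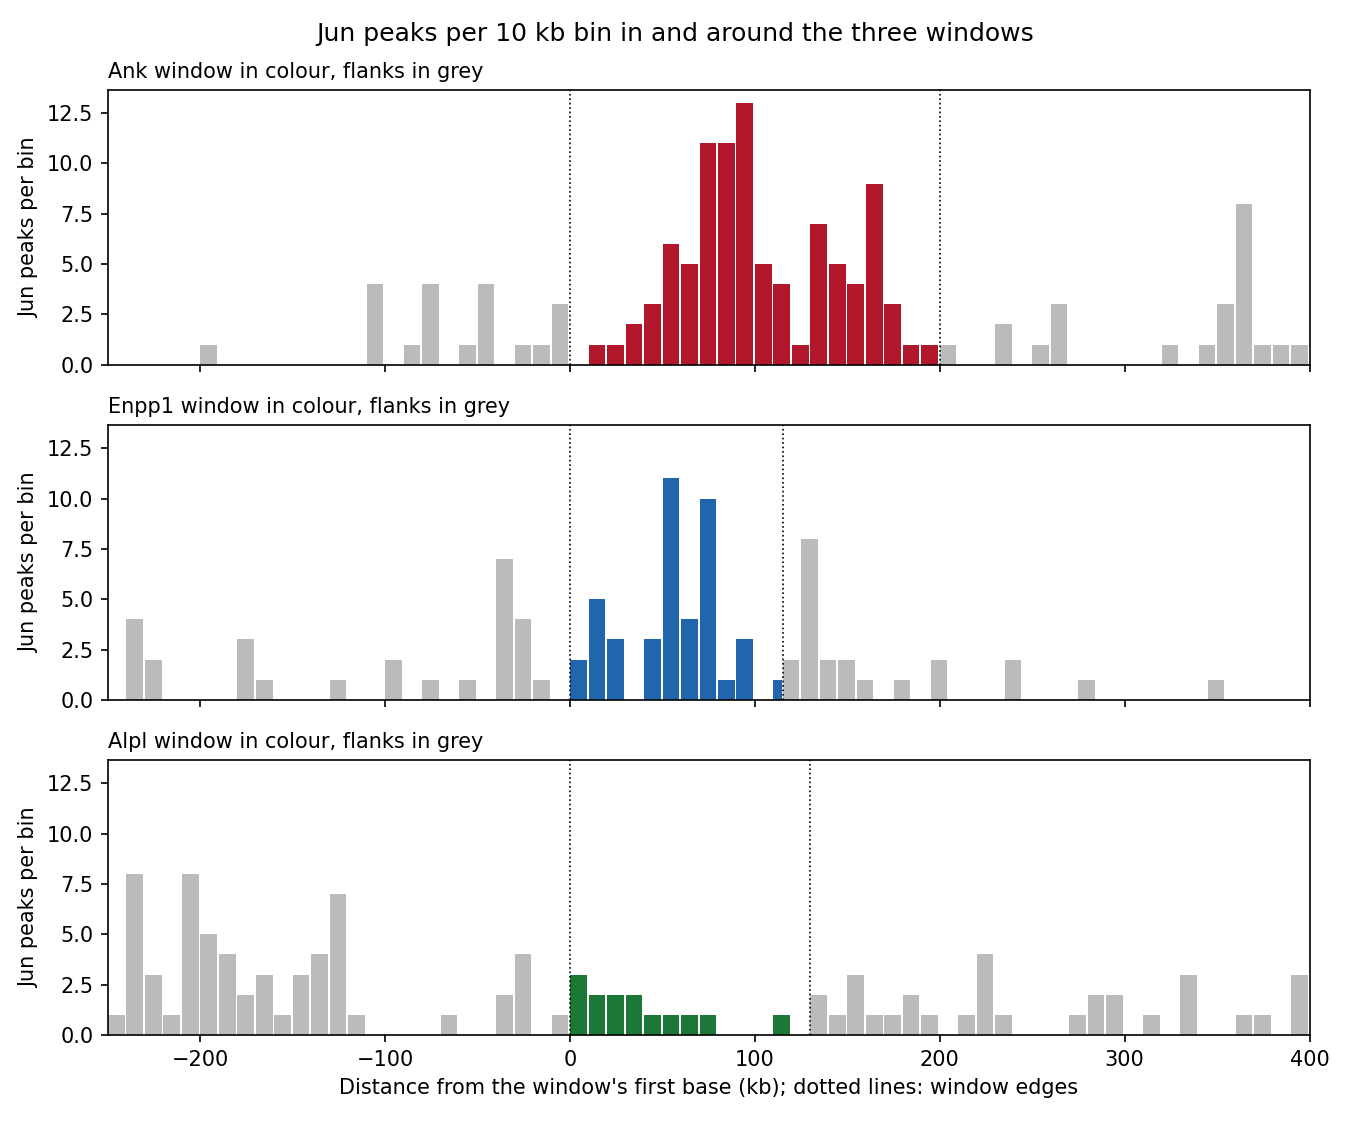
Jun peaks per bin of 10 kb (the last Enpp1 bin inside the window is 5 kb) against distance from the window's first base in kb, with the window in colour between dotted lines and its flanks in grey. Counts reach 13 per bin at Ank and 11 at Enpp1, and at Alpl no bin in the window passes 3.

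At Ank the peaks formed a broad central field and a smaller one beyond a gap. A group was a chain of peaks in which each centre is at most 10 kb from the next, and 61 of the 93 peaks fell into 1 group of 87.9 kb, chr15:27387176-27475087. A second group of 29 peaks covered 43.8 kb, chr15:27488166-27531990, and the remaining 3 peaks lay apart from both. Of 37573 such groups on the autosomes, a count that takes each lone peak as a group, 12 held 61 peaks or more, this one included. The fullest bin of 10 kb, chr15:27450001-27460000, held 13 peaks, the 2 bins before it 11 each, and 19 of 20 bins held at least 1. The median distance from a peak to the next was 932.5 bp, against 5589.5 bp over all autosomal peaks. When peaks with gaps under 1000 bp were joined, 36 regions remained, and the fullest joined 10 peaks over 5.78 kb (chr15:27430726-27436509). Of the 74037 regions left in the whole list by the same joining, 45 held 10 peaks or more. The longest stretch without a peak inside the window was 16.85 kb, chr15:27542832-27559681.

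The Enpp1 peaks fell into 2 groups with an empty stretch between them. The larger group held 32 of the 43 peaks over 48.3 kb, chr10:24390527-24438815, and 76 autosomal groups were as full or fuller, this one included. The smaller held 10 peaks over 17.8 kb, chr10:24350644-24368423. Between them, 22.1 kb without a peak (chr10:24368424-24390526) was the longest such stretch of the window. The remaining peak, 808 bp inside the edge, belonged to a group of 3 that reached out of the window. The fullest bins held 11 peaks (chr10:24395001-24405000) and 10 peaks (chr10:24415001-24425000), and the median distance to the next peak was 881 bp. Joining gaps under 1000 bp left 18 regions, the fullest with 7 peaks over 3.56 kb (chr10:24398980-24402541). Of all joined regions in the list, 218 held 7 or more.

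The 14 Alpl peaks were spread out and lay in the lower part of their window. Of these, 13 lay in the first 80 kb and 1 in the last 50 kb. The fullest group held 10 peaks over 32.6 kb, chr4:137259147-137291731, of which 9 were in the window, and 1175 autosomal groups were as full or fuller. No bin of 10 kb held more than 3 peaks, and the longest stretch without one was 34.5 kb, chr4:137335833-137370302. The median distance to the next peak was 6786 bp, close to the autosomal 5589.5 bp.

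Close neighbours were frequent at the first 2 genes. The next centre lay within 10 kb for 89 of the 93 Ank peaks (95.7%, exact 95% interval 89.4 to 98.8) and 41 of the 43 Enpp1 peaks (95.3%, 84.2 to 99.4). It did so for 10 of the 14 Alpl peaks (71.4%, 41.9 to 91.6) and for 61.6% of all autosomal peaks. Within 2 kb the counts were 70 at Ank (75.3%), 31 at Enpp1 (72.1%) and 3 at Alpl (21.4%), against 33.5% of autosomal peaks. Windows with many peaks have short distances by construction, so these shares add little to the counts. Peaks that overlap the one before numbered 2 at Ank (2.15%), 1 at Enpp1 (2.33%) and 0 at Alpl, beside 1.52% of autosomal peaks.

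**Figure D3:**
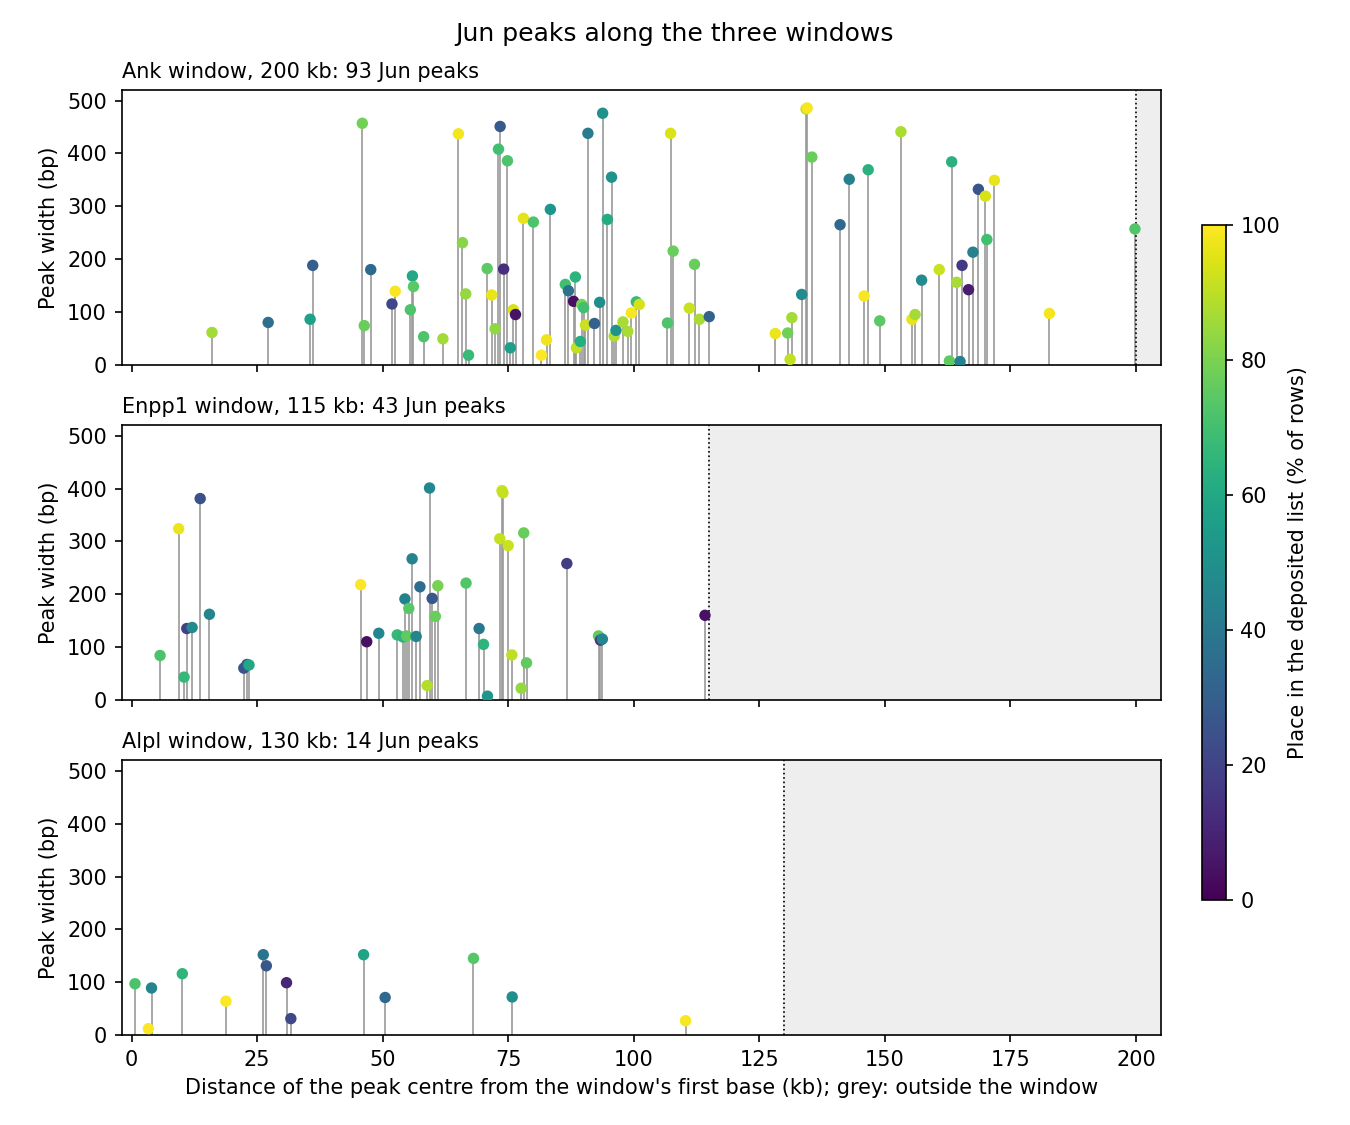
Width of each Jun peak in bp (height of the stem) against the distance of its centre from the window's first base in kb, coloured by its place in the deposited list in percent of rows. Of the 29 Ank peaks of 200 bp or more, 15 lie in the largest group and 13 in the second. Of the 14 at Enpp1, 12 lie in the larger group, and no Alpl peak passes 152 bp.

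Ank and Enpp1 held more wide peaks than the list at large, and Alpl held none. Peaks of 200 bp or more numbered 29 of 93 at Ank (31.2%, exact 95% interval 22.0 to 41.6) and 14 of 43 at Enpp1 (32.6%, 19.1 to 48.5), beside 14.0% of all autosomal peaks. Alpl had 0 of 14, which allows a share of up to 21.4% (3 counts of the total), so a share like the autosomal one was not detectable as different at this number of peaks. The flanking stretches had 4 wide peaks of 43 at Ank (9.30%), 5 of 34 at Enpp1 (14.7%) and 6 of 33 at Alpl (18.2%). Median widths were 133 bp at Ank (95% interval 107 to 168), 135 bp at Enpp1 (119 to 192) and 93 bp at Alpl (31 to 145), and 114 bp over autosomal peaks outside the windows. The upper quartile stood further apart, at 265 bp for Ank and 219.5 bp for Enpp1, against 151 bp for those autosomal peaks and 127.25 bp for Alpl. Peaks narrower than 50 bp were also present, 10 at Ank (10.8%), 4 at Enpp1 (9.30%) and 3 at Alpl (21.4%), beside 6.30% of autosomal peaks.

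Crowded windows elsewhere, chosen by the counts of Ank and Enpp1, also held more wide peaks than the list at large. Among 89 autosomal windows of 200 kb with at least 50% as many peaks as Ank, none of them overlapping the Ank window, a comparison chosen after the values were seen, the median share of wide peaks was 21.9%, and 14 windows reached the 31.2% of Ank. Among 531 windows of 115 kb with at least 50% as many peaks as Enpp1 the median was 18.2%, and 41 windows reached its 32.6%. Among 5589 such windows of 130 kb for Alpl the median was 12.5%, and 1257 (22.5%) held no wide peak. These windows held as few as 7 peaks, against 14 at Alpl, so the share with no wide peak is not like for like.

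The widest Ank peaks were an overlapping pair of 486 and 484 bp, chr15:27494294-27494779 and chr15:27494068-27494551, in the smaller group, and a peak of 476 bp in the fullest bin, chr15:27453572-27454047. The narrowest measured 6 bp, chr15:27524990-27524995. A second overlapping pair of 408 and 451 bp, chr15:27432867-27433274 and chr15:27433180-27433630, lay in the joined region of 10 peaks. At Enpp1 the widest measured 401 bp (chr10:24404141-24404541), 396 bp (chr10:24418576-24418971) and 392 bp (chr10:24418767-24419158), and the last 2 of these overlapped. This pair belonged to 8 peaks packed into 5.51 kb, chr10:24418178-24423682, with a median width of 298.5 bp. The fullest Enpp1 chain with centres at most 2 kb apart held 13 peaks over 8.26 kb, with a median width of 173 bp. The narrowest Enpp1 peak measured 7 bp, chr10:24415879-24415885. At Alpl the widest peaks measured 152 bp (chr4:137286159-137286310 and chr4:137306136-137306287) and 145 bp (chr4:137328021-137328165), and the narrowest 12 bp (chr4:137263353-137263364).

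The Ank peaks stood late in the deposited list, whose order is not explained. Their median place was 74.5% of the way down the list, with the central 50% of peaks between 51.3% and 87.9%. For Enpp1 the median was 64.8% and for Alpl 53.8%, and for autosomal peaks outside the windows it was 49.8%. The second 50% of the list held 71 of the 93 Ank peaks (76.3%, exact 95% interval 66.4 to 84.5), 24 of the 43 Enpp1 peaks (55.8%, 39.9 to 70.9) and 7 of the 14 Alpl peaks, beside 49.8% of all autosomal peaks. The intervals treat peaks as independent, while some members of a window stand within a few rows of each other, so they may be too narrow. The last 10% of the list held 22 Ank peaks (23.7%), 6 Enpp1 peaks (14.0%) and 3 Alpl peaks (21.4%), beside 9.90% of autosomal peaks. The first 10% held 3 Ank peaks (3.23%), 2 Enpp1 peaks (4.65%) and 0 Alpl peaks, beside 10.1%. The flanking stretches had median places of 44.9% at Ank, 37.4% at Enpp1 and 54.6% at Alpl. Among the 89 crowded windows of 200 kb, 2 had a median place as late as Ank, and their own median was 54.0%. Among the 531 of 115 kb, 81 were as late as Enpp1.

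Few members at Ank and Enpp1 stood in the first 10% of the list, 3.23% and 4.65% of their peaks against 10.1% of autosomal peaks. At Ank the 3 earliest were chr15:27447963-27448082 at row 4061, chr15:27436415-27436509 at row 4641 and chr15:27526598-27526739 at row 7561. Both of the first 2 lay in the central field and the third in the smaller group, and all were of ordinary width, at 120, 95 and 142 bp. At Enpp1 they were chr10:24391778-24391887 at row 3680, chr10:24459113-24459272 at row 4255 and chr10:24438311-24438423 at row 16822, which is 17.0% down the list. The 8 packed peaks of Enpp1, by contrast, had a median place of 90.7%, and the 13 of its fullest chain within 2 kb one of 64.8%. At Alpl the earliest were chr4:137290814-137290912 at row 10365, chr4:137291701-137291731 at row 21291 and chr4:137286772-137286902 at row 26840, all 3 in the fullest group.

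**Figure D4:**
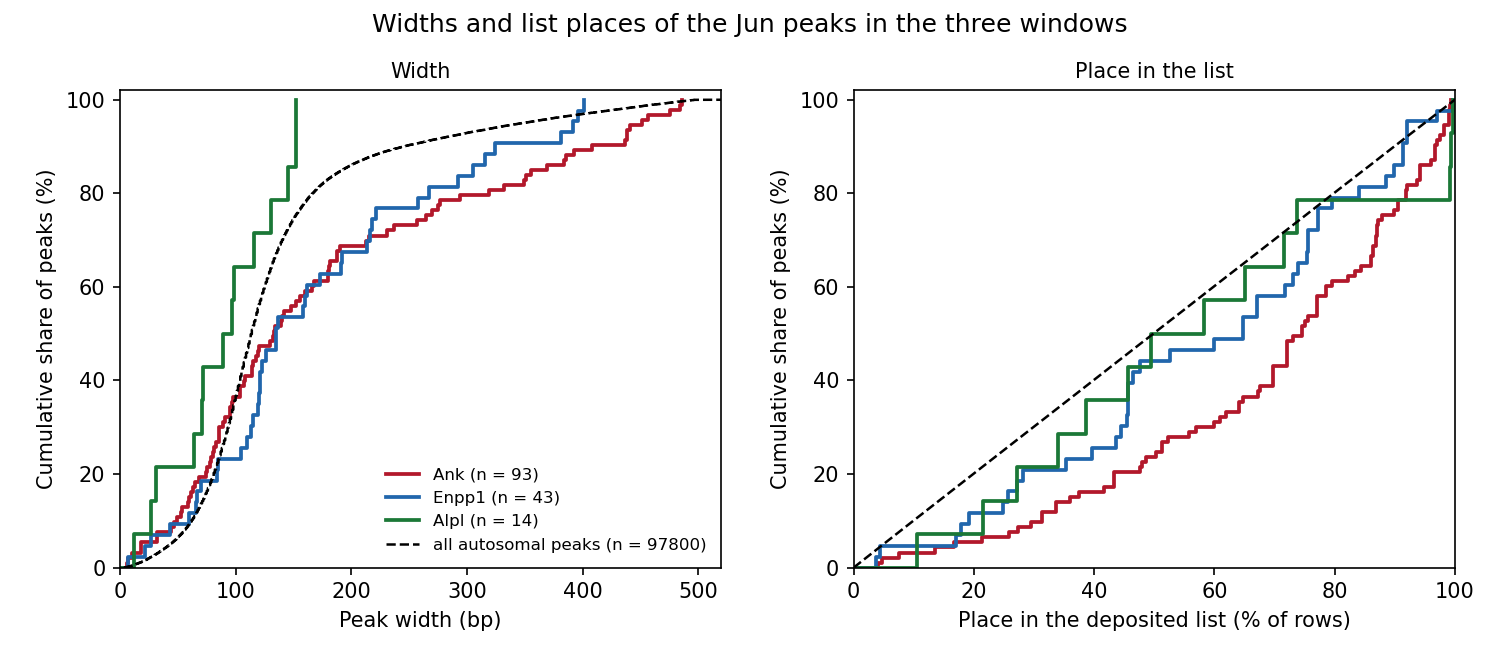
Cumulative share of peaks in percent against peak width in bp (left; widths over 520 bp are not shown) and against place in the deposited list in percent of rows (right), for Ank, Enpp1, Alpl and all autosomal peaks (dashed). At 200 bp the Ank and Enpp1 curves lie below the dashed curve, since 31.2% and 32.6% of their peaks are at least that wide, the Alpl curve ends at 152 bp, and the Ank median place of 74.5% is the latest of the 3.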

How the data were processed

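The only measurement used was the authors' deposited list of Jun peaks, which gives start and end positions on mm9, per the submitters' processing notes. It was assigned to the only Jun library, since no other Jun sample is among the 6. Aligner, peak caller, threshold and use of the input library: not given in the sources used here, beyond an unexplained FDR mark in the list's name. Depth is unknown, and the input was not analysed here.

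Peaks were assigned by midpoint, and positions are counted from 1. Intervals are exact Poisson or Clopper-Pearson (for medians, order-statistic) at 95% (scipy 1.17.1, pandas 2.3.3, numpy 2.4.6, Python 3.11.15). Comparison windows were laid end to end between the first and last peak of each autosome. Counting, joining and chaining were tested on simulated data. No test was made. The peaks named are the 3 widest, the narrowest, the 3 earliest and those at the edges, with the fullest group and bin and the longest empty stretch. Overlapping pairs, the 8 packed Enpp1 peaks and the Enpp1 chain of 13 were added after values were seen. Genes, windows and alternatives were chosen with earlier results of these data known. Peak sequences, motifs in peaks and other genes of phosphate handling need mm9 references and were not analysed here.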

Additional observations from a re-analysis of the deposited data

How the results depend on the processing

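Of 60 alternatives, 32 left their value within its counting interval or, for counts, within 1.5 times, and 28 did not. Joining peaks with gaps under 1000 bp left 36 regions at Ank and 18 at Enpp1, with median widths of 610.5 and 319.5 bp and largest groups of 17 and 12. At Alpl it left 11 regions. As many joined regions were found in 0.158% of windows for Ank, 1.07% for Enpp1 and 10.1% for Alpl. The first 50% of the list held 22 Ank, 19 Enpp1 and 7 Alpl peaks, reached by 1.32%, 0.407% and 13.0% of windows. The last 50% held 24 Enpp1 and 7 Alpl peaks, and 12.1% of windows reached Alpl. Both parts hold fewer peaks by construction. Peaks of at least 50 bp gave 15.8% for Alpl, and windows with at least 1 peak gave 0.297% for Enpp1 and 16.2% for Alpl. With edges moved in by 25 kb, Alpl held 8 peaks. Chaining within 2 kb gave largest groups of 22 at Ank, 13 at Enpp1 and 2 at Alpl, and the shares with the next peak within 2 kb were 75.3%, 72.1% and 21.4%. For the other changes the cause was not tested. The order Ank, Enpp1, Alpl in number of peaks held under the settings run, but the windows differ in length, and per 100 kb the first 50% of the list had 11.0 peaks at Ank and 16.5 at Enpp1. No paired analysis was possible because the labels describe 1 Jun library. Without depth or scores, a stretch without peaks cannot be taken as unbound.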

Other observations

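Some Ank and Enpp1 peaks stood within a few rows of each other in the deposited list, although the list is not in genomic order. At Ank, 16 pairs of successive members were within 10 rows of each other, 4 of them in consecutive rows, and at Enpp1 there were 6 and 3. At Alpl there were 0. Per 100 peaks this was 17.2 pairs within 10 rows at Ank and 14.0 at Enpp1. The medians were 9.26 over 89 autosomal windows of 200 kb with at least 50% as many peaks as Ank, of which 6 reached the Ank value, and 4.55 over 531 such windows of 115 kb for Enpp1, of which 26 reached its value. For Alpl the median over 5589 such windows of 130 kb was also 0. The windows compared could hold fewer peaks than the gene's own, and the values were not adjusted for this. All these values were chosen after seeing the data. The paired peaks were not always neighbours on the chromosome. The Ank pairs lay 0.87 to 117.69 kb apart, with a median of 23.1 kb, and the Enpp1 pairs 0.63 to 42.45 kb, with a median of 15.2 kb. Rows 69132, 69133 and 69134 were all Ank peaks, starting at 27446305, 27449968 and 27530207. Over the whole list, 1.29% of rows were followed by a peak within 100 kb on the same chromosome, 2.11% in the last 50% and 0.484% in the first 50%. What orders the list was not tested.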
